A study of Drosophila melanogaster with 4 samples.

Results

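The muscle cells of Drosophila testis tumors were the 329 cells, of 20618 in all, that the authors' deposited cell annotation calls muscle. They came from all 4 libraries, with 84 cells in Nanos-Upd replicate 1, 84 in Nanos-Upd replicate 2, 83 in TrafficJam-Upd replicate 1 and 78 in TrafficJam-Upd replicate 2. The other annotated classes were GSC-like (10889 cells, resembling germline stem cells), CySC-like (8261 cells, resembling cyst stem cells), spermatocyte (624 cells) and somatic (515 cells). The tumors were driven by overexpression of Unpaired (Upd), the secreted ligand of the JAK-STAT pathway, and were profiled with 3' single-cell RNA sequencing that counts unique molecular identifiers (UMIs). About 18 to 20 pairs of testes were dissociated for each tumor type, so every value below is a mean over pooled animals, and the labels leave unsaid whether the replicate libraries of a type came from separate dissections.

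The Nanos-Upd flies carried y[1] and w[1118], the heat shock recombinase insertion P{hs70FLP}, and the germline driver GAL4::VP16-nanos.UTR in combination with UAS-Upd. The TrafficJam-Upd flies carried w[1118] and the cyst cell driver traffic Jam-GAL4, again with UAS-Upd. Flies of both types had 1 copy of the reporter UAS-FRT-H3-GFP-FRT-H3-mKO and were kept at 25 °C. Neither driver is known as a muscle driver, so the muscle cells are read as neighbours of the cells that were made to express the ligand. No wild-type testis was analysed here, and the driver and the rest of the genetic background cannot be told apart.

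The fly testis is wrapped in a sheath of thin, multinucleate muscle, which lies under a layer of pigment cells and outside a basement membrane. The sheath is formed by muscle precursors that come from the genital disc and spread over the gonad during metamorphosis. Its contraction helps to move sperm. In striated muscle, sarcomeres are built of thick filaments of myosin, thin filaments of actin with tropomyosin and troponins, and Z-discs joined to titin-like proteins.

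The 4 muscle sums held 308967, 295225, 289643 and 278549 UMIs, in the order Nanos-Upd replicates 1 and 2 and TrafficJam-Upd replicates 1 and 2, which is the order of all values below. Levels are UMIs of a gene per 1000000 UMIs of all genes in the summed muscle cells of a library (CPM), so 1 UMI was worth 3.24 to 3.59 CPM and 3 UMIs, the limit that a count of 0 allows, were worth 9.71 to 10.8 CPM. The median muscle cell had 3320.5, 3278.5, 3242 and 3134.5 UMIs. The median share of mitochondrial UMIs in muscle cells was 4.16%, 5.45%, 3.15% and 3.67%. Of 20618 cells, 70 carried a barcode that also occurred in another library, and 3 of these were muscle cells.

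The muscle label went with its markers. All 329 muscle cells held at least 7 UMIs of Mhc, Mlc2, up and wupA together (median 49, highest 185), and 323 of them held UMIs of all 4. In the 20289 other cells 1451, or 7.15%, held any such UMI, and 7 cells held 7 or more. The share of cells with a UMI of these markers was 6.99% in the somatic, 5.67% in the CySC-like, 8.22% in the GSC-like and 8.33% in the spermatocyte class, where these muscle genes would not be looked for. Lists of other cell types were in part detected in muscle. Over all features, 10405 of 17558 had a UMI in muscle. UMIs were found for 4 of 9 listed hemocyte genes (summed level 69.1 to 113 CPM) and 5 of 8 fat body genes (86.3 to 165 CPM). They were also found for 3 of 8 glia and trachea genes (110.0 to 169 CPM) and 6 of 9 neuron genes (244 to 430 CPM). In the same order, the highest sums of these lists in any other class were 652, 1565, 309 and 354 CPM. Of the neuron genes, elav was at 84.2, 91.5, 34.5 and 25.1 CPM in muscle and at most 46.0 CPM in any other class. Hml, a blood cell marker, had 1 UMI in all muscle cells, and no UMI was counted for the blood cell genes NimC1 and eater, the terminal epithelium genes hh and Nep4, the pigment cell genes Sox100B and ems, the glial gene repo, the tracheal gene btl or the neuronal gene nSyb.

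Cyst and germline RNA was present in part of the muscle cells, and more so in the second replicate of each tumor type. The 14 cyst lineage markers summed to 2045, 3506, 1982 and 2168 CPM in muscle, against 4501 to 6363 CPM in the CySC-like class. The 14 early germline markers summed to 728, 1280, 549 and 1084 CPM, against 2590 to 3938 CPM in the GSC-like class. For counts per cell, here and below, smaller sets were used. The cyst markers were tj, zfh1, Egfr, CadN, Wnt6, Nrt and eya, and the early germline markers were those of the list except piwi and tud. At least 5 UMIs of these early germline markers were found in 3, 14, 1 and 16 muscle cells. At least 5 UMIs of these cyst markers were found in 6, 38, 8 and 17. Muscle cells with no UMI of tj, zfh1, Egfr, vas, nos or zpg, all of which mark cyst or germline cells, numbered 51, 25, 63 and 37. TrafficJam-Upd replicate 2 also had the lowest median share of UMIs from the genes high in muscle (defined below), 7.34% against 9.96% to 11.4% in the other libraries. The part of mixed RNA in the results below was not tested beyond leaving such cells out.

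**Figure D1:**
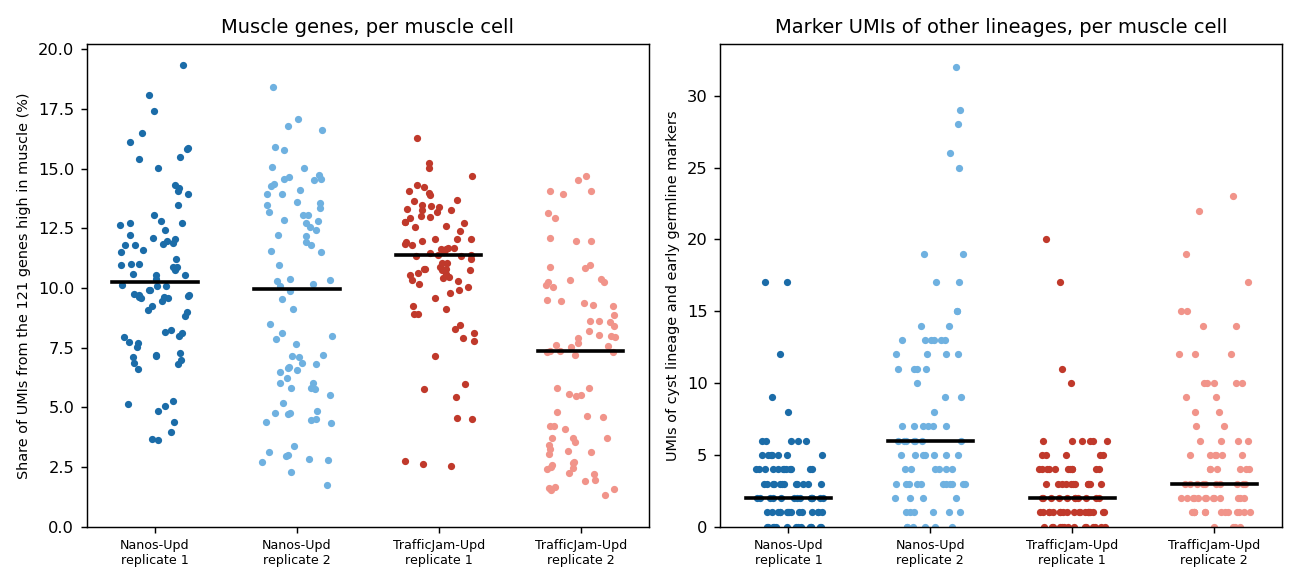
Each point is 1 muscle cell, in 4 columns by library, with black lines at the medians. Left, percent of the cell's UMIs from the 121 genes high in muscle: medians are 10.3%, 9.96%, 11.4% and 7.34%. Right, UMIs of cyst lineage plus early germline markers: medians are 2, 6, 2 and 3, higher in both second replicates. The cyst markers counted here are tj, zfh1, Egfr, CadN, Wnt6, Nrt and eya, and the early germline markers are those listed except piwi and tud.

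Of 15590 features with a UMI in any class, 121 (0.776%) were at least 4-fold higher in muscle than in every other class in every library, with 10 CPM added to both levels. No feature (0, or 0.0%) was at least 4-fold lower by the same rule. Since the class was named from expression, these counts and the folds below describe the class and were not tested. Of the 121 genes, 21 were on the X (17.4%, against 17.1% of the 1809 genes at 50 CPM or more in every muscle sum). The arm furthest from its share of those genes was 3L, with 13 (10.7%, against 18.4%).

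Thick filament genes were almost all in the group, with 5 of 6 members. Mhc, the muscle myosin heavy chain (chromosome 2L, 16766566 to 16788766, plus strand, in the Ensembl annotation of BDGP6.54, as for all positions here), stood at 4712, 4976, 3853 and 2301 CPM, and at no more than 15.7 CPM in any other class. Mlc2, the regulatory light chain, stood at 7127, 5193, 8452 and 5141 CPM and was at least 168-fold above every other class. Mlc1, the essential light chain, Prm (paramyosin) and Mf (myofilin) were at least 101-fold, 57.8-fold and 100.4-fold above the other classes. fln (flightin), a thick filament protein of indirect flight muscle, had 0 UMIs in all 4 sums.

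Thin filament genes showed the same use of some family members and not of others. Act57B was at 3036, 2134, 2662 and 1587 CPM and at least 93.0-fold above the other classes. Act87E was at 610 to 1198 CPM, at least 3.43-fold above the others and so just outside the rule. Act79B and Act88F, the latter the actin of flight muscle, had 0 UMIs, and the cytoplasmic actins Act5C and Act42A were lower in muscle (211 to 826 and 44.9 to 158 CPM) than in the class with the highest level (2681 and 1343 CPM).

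Of 9 tropomyosins and troponins, 6 met the rule. up (troponin T; X, 13593474 to 13602578, minus strand) stood at 3036, 2297, 3349 and 1996 CPM, and wupA (troponin I; X, 18105568 to 18116922, minus strand) at 2648, 1971, 2690 and 1371 CPM. Tm2 was at least 72.2-fold above the other classes. Tm1, whose products are also used outside muscle, was at 944 to 1990 CPM but reached 648 CPM in another class. The troponin C genes split: TpnC73F (1308 to 2592 CPM), TpnC47D (549 to 1267 CPM) and TpnC25D (139 to 353 CPM) were high, whereas TpnC4 had no UMI and TpnC41C had 1.

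Z-disc and titin-like genes were in the group in 8 of 17 cases. bt (projectin) was at 6531, 7638, 5766 and 3034 CPM, sls (the titin-like kettin and Sallimus gene) at 3512, 3475, 2728 and 1371 CPM, and Mlp60A, a muscle LIM protein, at 4398, 3726, 4913 and 3005 CPM. Zasp66 was at least 76.3-fold above the other classes, Zasp52 was not above them (155 to 362 CPM against up to 365 CPM), and Zasp67 had 0 UMIs. Mlp84B, tn, Strn-Mlck and Unc-89 completed the group. Actn (alpha-actinin), Msp300, Lmpt, tmod and Fhos were 2.03-fold to 2.89-fold or more above the others. TrafficJam-Upd replicate 2 was the lowest of the 4 libraries for all 5 thick filament genes and all 15 Z-disc genes above 50 CPM on average, against 963 of 2446 genes of that level over the whole transcriptome.

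**Figure D2:**
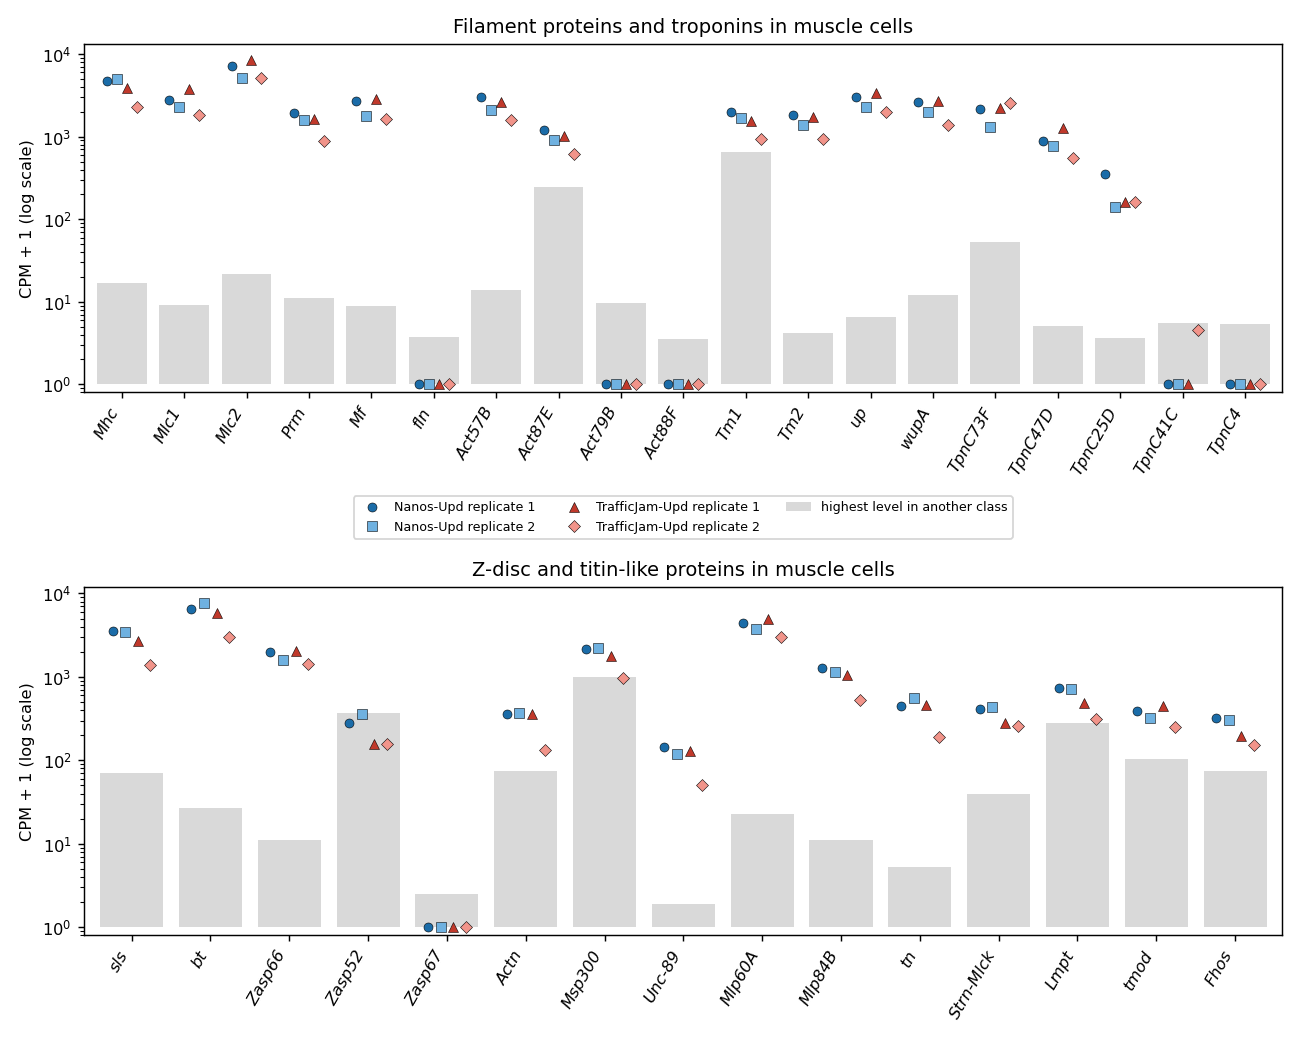
Levels of contractile genes in muscle cells, in CPM + 1 on a log scale, 1 symbol per library. Grey bars show the highest level in any of the other 4 classes and libraries. Mhc, Mlc2, up and wupA lie at least 65.7-fold above the other classes, while fln, Act79B, Act88F, Zasp67 and TpnC4 sit at 0 in all 4 libraries.

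Of 12 listed genes of excitation and calcium handling, 3 met the rule, namely Ca-beta, RyR and SERCA. Ca-alpha1T, a T-type calcium channel, was at 1104, 1053, 936 and 582 CPM and at least 13.0-fold above the other classes. Ca-beta, the auxiliary subunit of voltage-gated calcium channels, was at 311, 298, 307 and 176 CPM, Stacl, a STAC family protein that acts with such channels, at 304, 366, 266 and 151 CPM, and Rgk3, of a family of channel-regulating GTPases, at 738, 518, 546 and 205 CPM. RyR, the release channel of the sarcoplasmic reticulum, was at 165, 186, 124 and 82.6 CPM, and SERCA, the pump that refills it, at 531, 566, 542 and 427 CPM. Ca-alpha1D, the L-type channel, at 89.8 to 190 CPM, was at least 3.57-fold above the other classes and fell short of the rule, as jp (junctophilin) did at 3.76-fold.

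Potassium and pacemaker channels were among the 121 as well. SK, a calcium-activated potassium channel, was at 651, 661, 722 and 388 CPM, Shab, a delayed rectifier, at 324, 362, 535 and 255 CPM, and Hk, the beta subunit of Shaker channels, at 142, 146, 159 and 104 CPM. Ih, the hyperpolarization-activated channel known from pacemaker currents, was at 744, 840, 463 and 144 CPM, with the lowest value again in TrafficJam-Upd replicate 2. NKCC, a sodium, potassium and chloride cotransporter, was at 144 to 265 CPM and below 6.34 CPM elsewhere.

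Of 21 listed neurotransmitter and peptide receptors, 2 met the rule. They were TrissinR, a neuropeptide receptor (272, 339, 293 and 162 CPM, at most 6.33 CPM elsewhere), and GluRIIA, a subunit of the glutamate receptor of the fly neuromuscular junction (133, 102, 128 and 86.2 CPM, at most 1.14 CPM elsewhere). Neto, the auxiliary subunit of these glutamate receptors, was at 207, 186, 283 and 79.0 CPM. Outside the list, and named after their values were seen, NPFR (receptor of neuropeptide F), PK2-R2 (a pyrokinin receptor), AstA-R2 (an allatostatin A receptor) and Octalpha2R (an octopamine receptor) also met it. PK2-R2 was at 178, 146, 200 and 118 CPM, and AstA-R2 at 152, 129, 190 and 57.4 CPM. Octbeta2R, another octopamine receptor, was at 437, 295, 211 and 68.2 CPM. The receptors Lkr, SIFaR, Octbeta1R and Octbeta3R had no UMI in muscle.

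**Figure D3:**
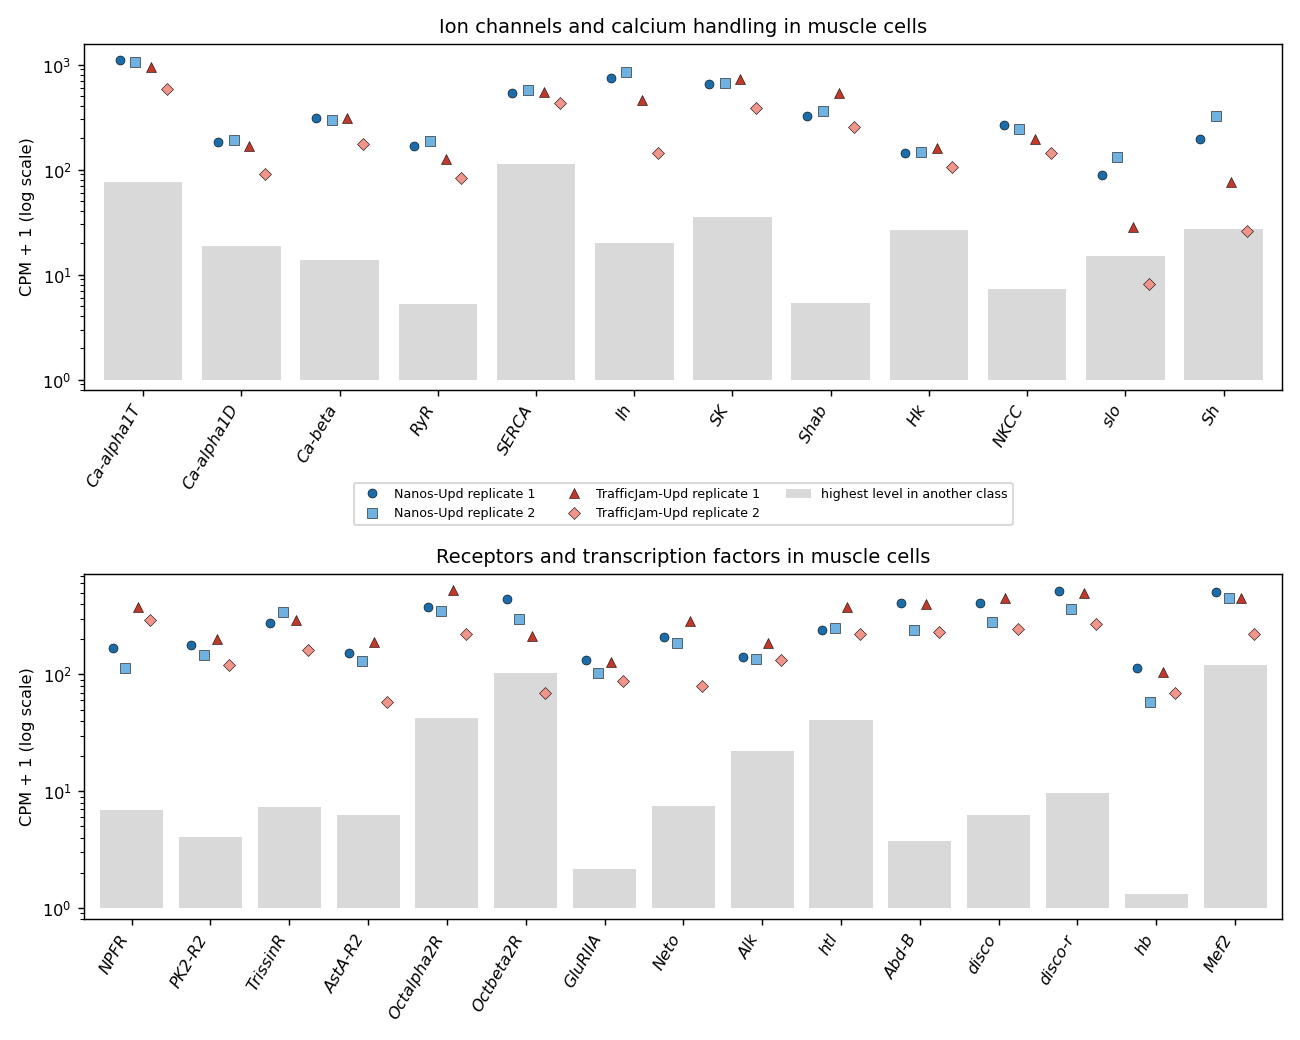
Levels of ion channel, receptor and transcription factor genes in muscle cells, in CPM + 1 on a log scale, 1 symbol per library, with grey bars at the highest level in another class. Abd-B, disco and GluRIIA stand clear of all other classes in every library, while slo, Sh and Octbeta2R fall below the highest other level in TrafficJam-Upd replicate 2.

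Of 20 listed transcription and RNA factors, 1 met the rule. This was Abd-B, the Hox gene of the most posterior segments and the genitalia, which was also listed as a gene of the terminal epithelium (3R, 16927212 to 16972236, minus strand). Abd-B was at 405, 240, 397 and 230 CPM, had a UMI in 60.5% of muscle cells and 0.285% of GSC-like cells, and reached at most 2.76 CPM in another class. The neighbouring Hox gene abd-A went the other way, with 35.6, 102, 31.1 and 50.3 CPM in muscle and 193 to 583 CPM in the somatic class. Outside the list, the zinc finger genes disco (408, 281, 445 and 244 CPM) and disco-r (521, 362, 501 and 269 CPM) and the gap gene hb (113, 57.6, 104 and 68.2 CPM) met the rule. Mef2, the main activator of muscle genes, was at 508, 454, 449 and 219 CPM against at most 120 CPM elsewhere. There was no UMI of nau, a fly MyoD, of bap or HLH54F, which act in visceral mesoderm of the embryo, of lmd or of vg.

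None of the 21 integrin attachment and myoblast fusion genes met the rule. The adhesion genes rhea (talin; 696, 661, 649 and 370 CPM), Pax (paxillin; 251 to 616 CPM) and if (an integrin alpha subunit; 122 to 301 CPM) were well detected. The fusion genes sns, hbs, sing and rols had 1, 1, 2 and 7 UMIs in all muscle cells together.

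Secreted and matrix genes varied. Timp, an inhibitor of matrix metalloproteases, was at 1851, 1209, 3114 and 1353 CPM and at least 7.33-fold above every other class. Ndg (nidogen) was at 45.3, 61.0, 162 and 89.8 CPM and was the basement membrane gene of 11 that met the rule. The collagen IV genes Col4a1 (57.6 to 96.9 CPM) and vkg (35.6 to 108 CPM) were lower than in other classes, which reached 656 and 267 CPM. dpp, a BMP ligand, was at 388, 281, 235 and 129 CPM in muscle and at most 55.8 CPM elsewhere. htl, an FGF receptor (240, 247, 376 and 219 CPM), and Alk, a receptor tyrosine kinase of visceral muscle founder cells (139, 135, 186 and 133 CPM), were the 2 of 20 visceral muscle signalling genes in the group.

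The tumor ligand and its targets were also read in muscle. upd1 had 2, 3, 5 and 4 UMIs, and the reporter H3-GFP 0, 5, 5 and 4, each at most 17.3 CPM. In CySC-like cells of TrafficJam-Upd tumors upd1 stood at 77.4 and 65.8 CPM and H3-GFP at 103 and 74.1 CPM. Socs36E, a target and inhibitor of JAK-STAT signalling, was at 463, 654, 1029 and 689 CPM in muscle, lower in both Nanos-Upd libraries (log2 difference -0.78 ± 0.33, SE; edgeR adjusted p = 0.637). Without the muscle cells that held tj, zfh1, Egfr, vas, nos or zpg, the difference was -1.23 (edgeR adjusted p = 0.0274). That choice of cells was made after the data were seen. Socs36E was called under 2 of 12 alternatives and not under the other 10. dome, the receptor of the pathway, was at 152, 105, 255 and 162 CPM (log2 difference -0.82 ± 0.41), and Stat92E at 421, 376, 435 and 359 CPM. The roX RNAs of dosage compensation, which cover the male X, were at somatic levels: lncRNA:roX1 was at 2068, 2046, 1861 and 1253 CPM in muscle and 1450 to 2148 CPM in the somatic class, and lncRNA:roX2 at 1712, 1504, 1547 and 944 CPM. In GSC-like cells lncRNA:roX1 was at 50.9 to 158 CPM.

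Muscle cells were not uniform. Among genes with a mean of at least 0.3 UMIs per muscle cell, CG5023 and Cbp53E were in far fewer cells than genes of like level, taken as those within 20% of the same mean. CG5023, an uncharacterized gene, had 1.85 UMIs per cell on average but was found in 32.8% of muscle cells, where 117 genes of like level had a median of 74.2% and a lowest value of 55.0%. Cbp53E, which encodes the calcium buffer calbindin (2R, 16973927 to 16996057, plus strand), had 7.59 UMIs per cell and was found in 59.3%, where 43 genes of like level had a median of 99.1% and a lowest value of 86.3%. CG34330, sr, CG6282, ana and TpnC25D followed, and Pxn and CG15628 were also within the first 22. These genes and the splits made with them were chosen after their values were seen, so no test is given. In GSC-like cells, whose median depth was 4004 UMIs against 3275 in muscle, the share of cells with a UMI was 0.165% for CG5023, 0.441% for Cbp53E and 0.220% for Pxn.

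CG5023 marked cells of a different troponin C and calcium sensor content in every library. A UMI of it was present in 26, 31, 22 and 29 cells. In these cells TpnC25D stood at 926, 311, 433 and 379 CPM, and in the cells without CG5023 at 72.3, 37.6, 65.6 and 39.3 CPM. TpnC73F differed in the same direction (3713, 1942, 3727 and 5361 CPM against 1374, 935, 1705 and 1033 CPM), and so did Frq1, a neuronal calcium sensor protein (719, 321, 223 and 219 against 106, 107, 28.1 and 28.1 CPM). TpnC47D did not, with 788, 705, 1168 and 658 CPM in cells with CG5023 and 950, 801, 1302 and 488 CPM in cells without. CG6282 went the other way in all 4 libraries, with 39.4, 18.3, 131 and 39.9 CPM against 227, 279, 525 and 281 CPM. The general markers were less apart: Mhc was at 5426, 5350, 4134 and 2979 CPM in cells with CG5023 and at 4363, 4756, 3753 and 1919 CPM in the rest. Of 820 features with a mean of at least 200 CPM on either side, 294 differed in the same direction in all 4 libraries. At least 2-fold, with 50 CPM added to both levels, 11 were higher in the cells with CG5023 (CG5023 among them) and 3 lower.

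Cbp53E split the cells differently. Cells with at least 5 UMIs of it numbered 20, 24, 55 and 45, and cells with none numbered 56, 48, 17 and 13. Of 855 features with a mean of at least 200 CPM on either side, 320 differed in the same direction in all 4 libraries. At least 2-fold, with 50 CPM added to both levels, 7 were higher in the high cells (Cbp53E among them) and 0 lower. The high cells held more CG5023 (2386, 1213, 509 and 666 CPM against 186, 131, 172 and 54.4 CPM), more vir-1, a gene known for its induction by virus infection (1825, 1248, 1565 and 1562 against 186, 233, 551 and 200 CPM), and more CG6282. They also held more NPFR (394, 165, 463 and 442 against 90.1, 85.4, 172 and 90.7 CPM). Octbeta2R was lower in them (167, 82.4, 177 and 44.8 CPM against 567, 415, 206 and 109 CPM), though by little in TrafficJam-Upd replicate 1. The 2 receptors were not compared cell by cell. In TrafficJam-Upd replicate 2 the 13 cells without Cbp53E were deeper (median 4173 against 2929 UMIs) and low in Mhc (1252 against 3047 CPM), whereas in the other libraries the cells without Cbp53E had medians of 3193, 3481 and 3153 UMIs against 3900.5, 3286 and 3335. RNA of other lineages moved with the split. chinmo, a gene of cyst and early germ cells, was higher in the cells without Cbp53E in all 4 libraries (127, 552, 189 and 472 CPM against 71.6, 271, 67.6 and 224 CPM), as was lncRNA:CR43264 (382, 421, 4456 and 2214 CPM against 239, 177, 198 and 742 CPM). At least 5 cyst or germline marker UMIs were held by 3 of 56, 30 of 48, 3 of 17 and 10 of 13 cells without Cbp53E, and by 3 of 20, 9 of 24, 6 of 55 and 9 of 45 high cells. Its part in the split was not tested.

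Pxn, the matrix peroxidase peroxidasin (3L, 2601455 to 2630064, minus strand), marked a small set of 41 muscle cells. Of these, 20 were in Nanos-Upd replicate 1, 16 in Nanos-Upd replicate 2, 1 in TrafficJam-Upd replicate 1 and 4 in TrafficJam-Upd replicate 2. Mhc stood at 6312 and 5232 CPM in the cells with Pxn of the Nanos-Upd libraries and at 4261 and 4902 CPM in those without, while in TrafficJam-Upd replicate 2 the order was reversed, at 1213 against 2355 CPM. At least 5 cyst or germline marker UMIs were held by 2 of the 20 cells with Pxn in Nanos-Upd replicate 1 but by 13 of 16 in Nanos-Upd replicate 2, against 7 of 64 and 33 of 68 of the cells without Pxn. The part of this mixed RNA in the values below was not tested. None held Hml, which with Pxn is typical of blood cells. CG15628 was found in 65.9% of the cells with Pxn and in 1.04% of the cells without, and ana, which encodes the secreted glycoprotein anachronism, in 70.7% and 11.5%.

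Further genes went with Pxn in both Nanos-Upd libraries. Such agreement was common: of 902 features with a mean of at least 200 CPM on either side, 618 differed in the same direction in both. At least 2-fold, with 50 CPM added to both levels, 20 were higher in the cells with Pxn (Pxn among them) and 43 lower. The genes named here and below were picked from these after their values were seen. IA-2, a receptor-type phosphatase homolog of dense core vesicles, was at 6562 and 4201 CPM in cells with Pxn and at 1145 and 929 CPM in those without. Nlg1 (neuroligin 1, a synaptic adhesion protein) was at 603 and 561 against 74.7 and 82.9 CPM, stol, a calcium channel accessory subunit, at 383 and 379 against 37.3 and 13.1 CPM, and sNPF-R, the receptor of short neuropeptide F, at 191 and 273 against 20.7 and 21.8 CPM. The channels Sh (530 and 622 against 99.6 and 240 CPM) and slo (265 and 258 against 37.3 and 96.0 CPM) did the same.

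Other genes were lower in the cells with Pxn of both Nanos-Upd libraries. No UMI of ham, a PR domain transcription factor, or of CG33557 was counted in the 36 cells with Pxn of the Nanos-Upd libraries, against 427 and 323 CPM and 303 and 297 CPM in the cells without. Cbp53E was at 162 and 121 against 1531 and 1640 CPM, TpnC47D at 456 and 91.0 against 1021 and 960 CPM, and Abd-B at 221 and 75.8 against 456 and 288 CPM. Pxn and CG6282 were never found in the same cell (0 cells with both, of 41 and 86). Cells with CG6282 numbered 13, 14, 39 and 20 by library, most in TrafficJam-Upd replicate 1, where 1 cell held Pxn. Of the 329 cells, 21 held Pxn but neither CG5023 nor CG6282, 80 held CG5023 alone of these, 78 held CG6282 alone, 28 held more than 1 and 122 held none. Of the 108 cells with CG5023, 8 (7.41%) held CG6282, against 35.3% of the cells without CG5023.

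**Figure D4:**
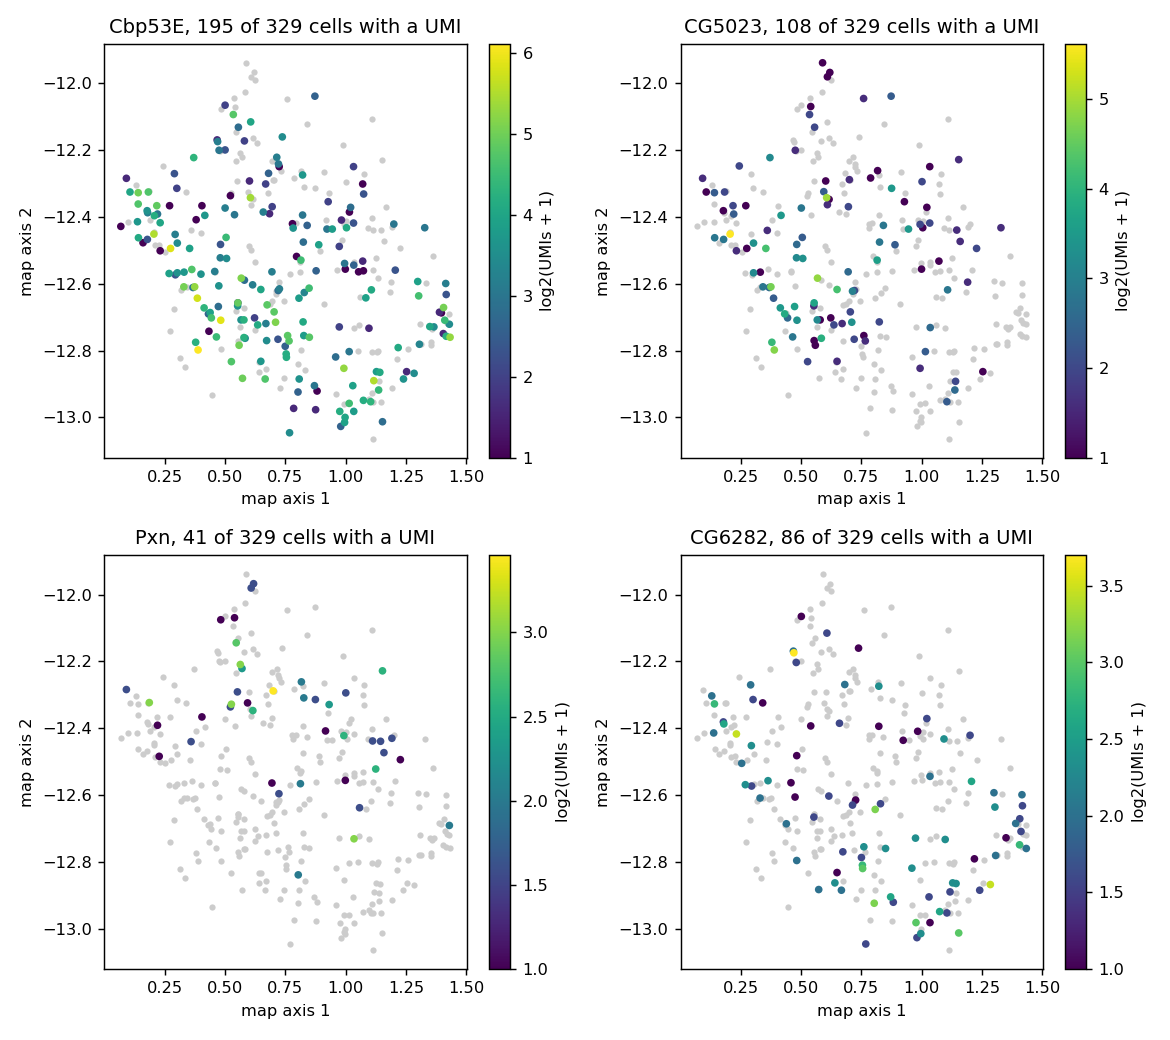
The 329 muscle cells on the authors' deposited 2-dimensional map (axes without units), coloured by log2(UMIs + 1) of Cbp53E, CG5023, Pxn and CG6282, with cells at 0 in grey. Cells with Pxn (41) lie mostly in the upper part of the map and cells with CG6282 (86) are spread more widely and reach its lower edge, and no cell holds both.

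Between tumor types, edgeR's quasi-likelihood test on the 4 muscle sums called 0 of 3361 genes at an adjusted p under 0.05 (0.0%), while 259 (7.71%) had an unadjusted p under 0.05, of which 134 (3.99%) were higher and 125 (3.72%) lower in Nanos-Upd. DESeq2, on the same sums, called 7. The comparison asks whether the muscle differs with the lineage that makes the ligand. The levels of the 2 types did not overlap for 1335 genes (39.7%), 876 higher (26.1%) and 459 lower (13.7%) in Nanos-Upd. Since no gene was called, the genes below were chosen after their values were seen, from those with the smallest p.

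ana and Pxn had the smallest p. ana (2R, 9062295 to 9077554, plus strand) was at 337, 301, 27.6 and 43.1 CPM, a log2 difference of 3.03 ± 0.43 (SE) with an edgeR adjusted p of 0.0680. Pxn was at 207, 176, 10.4 and 21.5 CPM, a difference of 3.43 ± 0.50 with the same adjusted p. Both Nanos-Upd libraries lay above both TrafficJam-Upd libraries for either gene. ana passed edgeR or DESeq2 under 8 of 12 alternatives (adjusted p 7.18e-10 to 0.141) and Pxn under 8 of 11, among them the fits without any 1 library. Without the muscle cells that held tj, zfh1, Egfr, vas, nos or zpg, ana was at 352, 126, 32.9 and 93.9 CPM, and its log2 difference shrank to 2.10 (edgeR adjusted p = 0.0854). In those same cells Pxn was at 227, 69.9, 14.1 and 46.9 CPM and was too low for the test. The types still did not overlap in CPM for either gene, but the second replicates lay closer together. In these the sums held 71567 UMIs from 25 cells (Nanos-Upd) and 106543 UMIs from 37 cells (TrafficJam-Upd). Equal counts would thus give unequal CPM, and both genes rested on few UMIs there. In the somatic class ana was at 101, 88.9, 0 and 22.2 CPM and Pxn at 31.7, 7.67, 0 and 0 CPM, and in the CySC-like class ana did not exceed 5.84 CPM.

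A UMI of Pxn was held by 23.8%, 19.0%, 1.20% and 5.13% of the muscle cells. The cells with one held 3.2, 3.25, 3.0 and 1.5 UMIs of it on average, where the TrafficJam-Upd values rest on 1 and 4 cells. Some genes that went with Pxn in the Nanos-Upd cells were also higher in both Nanos-Upd libraries. Those named here were picked after their values were seen. CG34330 went with Pxn too, and in the cells without Pxn it was at 203, 205, 436 and 177 CPM. Nlg1 was at 191, 190, 34.5 and 46.7 CPM (log2 difference 2.08 ± 0.41), CG15628 at 236, 166, 0 and 25.1 CPM, sNPF-R at 58.3, 77.9, 6.91 and 0 CPM, ATP8A, a phospholipid flippase, at 100.3, 119, 17.3 and 14.4 CPM, and side-V, of the Sidestep family of adhesion proteins, at 249, 254, 41.4 and 71.8 CPM. Within the muscle cells without Pxn, ana was still at 99.6, 105, 27.9 and 26.4 CPM and side-V at 174, 131, 41.8 and 64.1 CPM, while stol was at 37.3, 13.1, 38.3 and 7.54 CPM. How far the differences follow the number of such cells was not tested. Of 9 neuron markers, 6 had a UMI in muscle, and they summed to 359, 430, 245 and 244 CPM, nearly all from Syx1A and elav, with nSyb, nrv3 and VGlut at 0. Of the 9 genes listed for hemocytes, 4 had a UMI, and they summed to 113, 102, 69.1 and 96.9 CPM. Nearly all came from crq and ppl, with NimC1, NimC4, eater, He and PPO1 at 0. In the somatic class the same list summed to 144 to 652 CPM. In muscle the neuron and hemocyte sums were higher in both Nanos-Upd libraries, and their part in the differences was not tested.

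pigs, whose product belongs to the Gas2 family of cytoskeletal proteins, was higher in Nanos-Upd without belonging to the cells with Pxn. It stood at 628, 434, 145 and 122 CPM (log2 difference 1.86 ± 0.39; edgeR adjusted p = 0.185), and in the cells with Pxn at 44.1 and 91.0 CPM in the Nanos-Upd libraries. The channel genes slo (87.4, 132, 27.6 and 7.18 CPM) and Sh (194, 325, 76.0 and 25.1 CPM) and the regulator of G protein signalling loco (162, 196, 31.1 and 50.3 CPM) were also separated by type.

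Cbp53E was the clearest muscle gene in the other direction. It was at 1230, 1301, 3591 and 2484 CPM, a log2 difference of -1.41 ± 0.28 (edgeR adjusted p = 0.174, from 5.89e-11 without muscle cells holding at least 2 early germline markers to 0.836 at 3000 UMIs or more over 12 alternatives), with both TrafficJam-Upd libraries above both Nanos-Upd libraries. Cells with a UMI made up 33.3%, 42.9%, 79.5% and 83.3%, whereas a cell with any held 13.6, 10.7, 15.8 and 10.6 UMIs on average, values that overlap between the types. NPFR (168, 112, 380 and 291 CPM; log2 difference -1.38 ± 0.39; adjusted p = 0.436) and NetA, the guidance ligand Netrin-A (327, 251, 1070 and 474 CPM; -1.55 ± 0.44; adjusted p = 0.436), were lower in Nanos-Upd too. NPFR was in 26.2%, 29.8%, 65.1% and 55.1% of muscle cells.

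For RpS14b and CG1894 the types were separated in the same direction in each of the 5 classes. RpS14b, a ribosomal protein gene on the X, was at 252, 251, 846 and 994 CPM in muscle (log2 difference -2.01 ± 0.33; edgeR adjusted p = 0.129) while its CySC-like levels were 260, 260, 686 and 883 CPM. Its near-identical neighbour RpS14a was at 1748, 1541, 1460 and 1554 CPM in muscle, and reads of the pair may be split between them, so the value for either is uncertain. CG1894 was at 16.2, 13.5, 76.0 and 258 CPM in muscle and at 156, 138, 897 and 963 CPM in GSC-like cells. Vti1b, a SNARE protein of membrane fusion, was at 29.1, 27.1, 100.1 and 140.0 CPM in muscle, and in the somatic class, at 79.3, 65.9, 137 and 79.2 CPM, the types overlapped. lncRNA:CR43264 was at 353, 352, 1046 and 1152 CPM in muscle, below its 2094 to 8309 CPM in GSC-like cells. Without the muscle cells that held tj, zfh1, Egfr, vas, nos or zpg it was at 255, 349, 221 and 948 CPM, so the types overlapped. The log2 difference went from -1.78 to -1.08. In contrast Cbp53E did not exceed 8.27 CPM outside muscle.

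**Figure D5:**
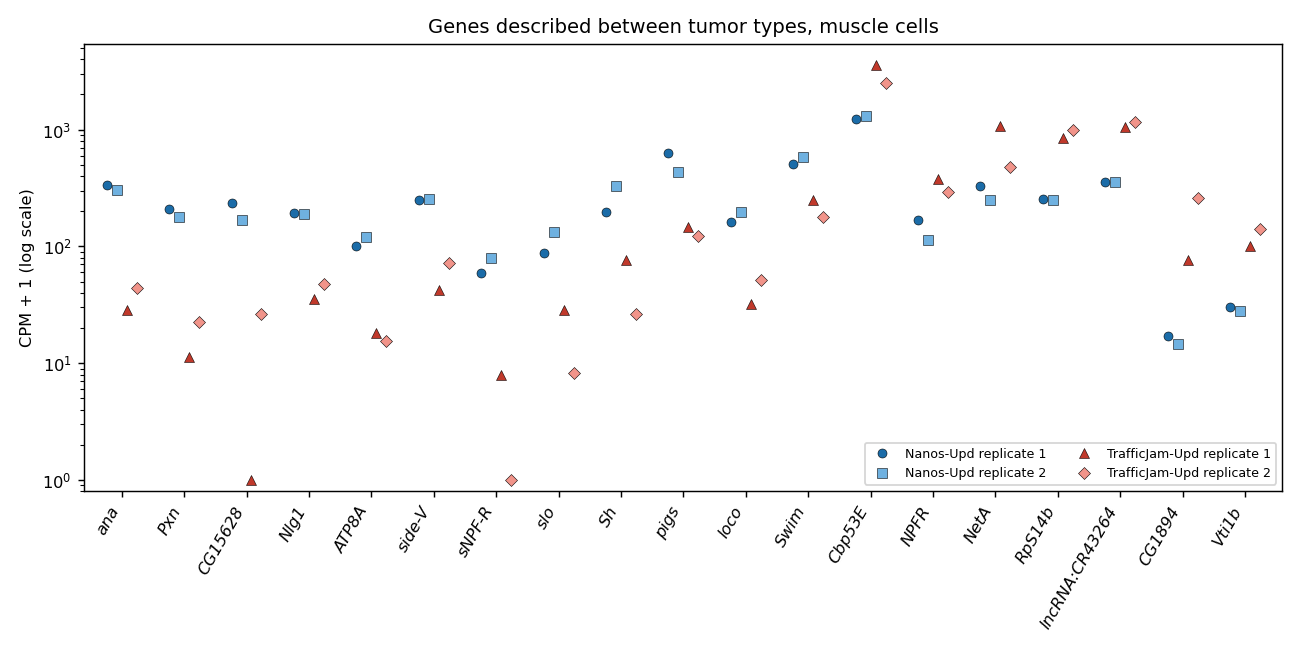
Levels in muscle cells of the 19 genes described between tumor types, in CPM + 1 on a log scale, 1 symbol per library. The 12 genes on the left, from ana to Swim, are higher in both Nanos-Upd libraries, and the 7 on the right, from Cbp53E to Vti1b, are higher in both TrafficJam-Upd libraries.

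The contractile lists were not called between types in any member. The median log2 difference was -0.14 over the 5 thick filament genes tested, 0.06 over 7 tropomyosin and troponin genes, 0.49 over 16 Z-disc genes and -0.01 over all 3361 genes. In 9 of the 16 Z-disc genes both Nanos-Upd libraries were higher, against 26.1% of all genes, and TrafficJam-Upd replicate 2 was the lowest library in most. Mhc differed by 0.51 ± 0.28, Mlc2 by -0.27 ± 0.30, up by -0.13 ± 0.32 and wupA by 0.06 ± 0.35. The directions of Mlc2, up and wupA turned when single libraries were left out. Of 12 mitochondrial genome transcripts, 11 were higher in both Nanos-Upd libraries, with a median of 0.56, while the mitochondrial share was highest in Nanos-Upd replicate 2. The spermatid transcripts found in muscle cells had a median of 1.11 over 7 genes. They summed to 1262, 562, 338 and 363 CPM, against 14646 to 34071 CPM in the spermatocyte class. Such levels were not particular to muscle, with 601 to 1564 CPM in the somatic, 376 to 1282.5 CPM in the CySC-like and 268 to 1010 CPM in the GSC-like class.

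The tumor type effect in muscle was then set against its mean over the other 4 classes, with 20 sums in the fit. edgeR called 1 of 8958 genes (0.0112%), and 424 (4.73%) had an unadjusted p under 0.05. The gene was Swim (2R, 22189817 to 22202671, minus strand), whose product is a secreted protein that binds the ligand Wingless. Swim stood at 508, 586, 249 and 176 CPM in muscle, at 114, 99.7, 214 and 279 CPM in the somatic class and at 184, 184, 247 and 204 CPM in the CySC-like class. It was thus higher in both Nanos-Upd libraries in muscle and lower in them in the somatic class, with a difference of effects of 1.70 ± 0.29 on the log2 scale and an adjusted p of 0.0368. Muscle cells with a UMI of Swim made up 52.4%, 66.7%, 45.8% and 37.2%. The call was lost under 8 of 11 alternatives, with an adjusted p between 0.000227 and 0.866 over all 11, among them the fits without Nanos-Upd replicate 1 (adjusted p = 0.259), Nanos-Upd replicate 2 (0.203) or TrafficJam-Upd replicate 2 (0.423). side-V (2.11 ± 0.39; adjusted p = 0.0768) and pigs (1.73 ± 0.34; adjusted p = 0.0954) came next and were not called.

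Muscle cells were a small share of each library, 1.82% (95% exact binomial interval 1.45 to 2.25%), 0.924% (0.738 to 1.14%), 2.56% (2.04 to 3.16%) and 2.13% (1.68 to 2.65%). The mean share was 1.37 ± 0.634% over the Nanos-Upd libraries and 2.34 ± 0.308% over the TrafficJam-Upd libraries (SD, n = 2 each), and both TrafficJam-Upd libraries were higher. The two-sided exact permutation p was 0.333, the smallest that 2 libraries against 2 allow. Of the cells that were not germline, muscle made up 4.29%, 2.46%, 4.09% and 4.59%, so the types overlapped and the exact permutation p was 0.667. Suspensions had passed filters of 40 µm and then 10 µm, which can set the share of muscle recovered, and intervals cover counting error only.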

How the data were processed

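Single cells were prepared from dissociated testis tumors with the 10x Genomics 3' kit of version 3.1, per the labels. The submitters' processing notes name Cell Ranger 7.0.0, Seurat 5.0.3 and the build dm6, with no role or order. The authors deposited 1 table of raw UMI counts per gene and cell, and 1 annotation with each cell's class, map position (a score with no unit) and the percent of mitochondrial and ribosomal UMIs. Deposited cells ran from 2200 to 7499 UMIs and stayed under 10% mitochondrial UMIs. Whether doublets were removed before deposit is not given in the sources used here, and no doublet caller was run.

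Here the counts of the muscle cells were summed per library, since cells are not replicates. Sums were tested with edgeR 4.0.16 (R 4.3.3; TMM, filterByExpr, robust quasi-likelihood fit, Benjamini-Hochberg adjustment, calls at an adjusted p under 0.05), with DESeq2 1.42.0 as an alternative. The interaction fit had library nested in tumor type, and class. Errors given with log2 differences are standard errors implied by the F statistic. The fits were tested on simulated data. Class against class was described by CPM with 10 CPM added, without a test. Nothing in the labels says that the 2 libraries of a type came from separate cultures, so p-values measure the spread between these libraries.

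Members, gene lists and markers were chosen with earlier results of these data known. The 27 lists matched 341 of 345 entries. The naming rule was for each direction, up to 10 called genes by size of change (mean at least 50 CPM, no overlap of the types) and 5 called per list, the 5 largest for the interaction, and the 30 genes with the largest lowest ratio over the other classes. Since no gene was called between tumor types, genes with the smallest p were named instead. Positions are those of Ensembl release 115, matched by FlyBase identifier for 17515 of 17558 features. The alternatives were leaving out single libraries, testing without the low-count filter, RLE size factors, the replicate number as a block, other sets of muscle cells (at least 2 of the 4 markers; fewer than 2 early germline markers; at least 3000 UMIs; 78 cells per library), other pseudocounts, a minimum of 50 CPM and non-germline cells as denominator. Leaving out the muscle cells with UMIs of tj, zfh1, Egfr, vas, nos or zpg was added after the data were seen. Sums and descriptions were made in Python 3.11.15 (pandas 2.3.3, numpy 2.4.6), exact tests with scipy 1.17.1 and figures with matplotlib 3.10.9.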

Additional observations from a re-analysis of the deposited data

Results flagged for a closer look

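Swim had a tumor type effect in muscle that differed from its mean effect in the other classes by 1.70 on the log2 scale, the 1 gene of 8958 whose difference passed edgeR's test (adjusted p = 0.0368). Its muscle levels of 508 and 586 CPM in Nanos-Upd against 249 and 176 CPM in TrafficJam-Upd went against those in the somatic class, at 114 and 99.7 CPM against 214 and 279 CPM. The difference ran from 0.95 to 2.13 over 11 alternatives, and 3 of them kept the call.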

How the results depend on the processing

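Between tumor types, edgeR's 0 called genes became 7 with DESeq2, 36 without a filter on low counts, 26 without muscle cells holding at least 2 early germline markers and 16 without those holding tj, zfh1, Egfr, vas, nos or zpg, and 12 to 93 with 1 library left out, where the lone library is taken to vary like the others. The cause was not tested. With the replicate block, 70 genes were called; the replicate numbers are names that no label ties to a shared batch, and same-numbered libraries deviated together with r = 0.36 over 2446 genes. For the interaction, the 1 call became 2 with DESeq2, 16 without a filter and 0 with RLE factors, with the replicate block, at 3000 UMIs or more and without either set of mixed cells, and 0 to 1 with 1 library left out. The share difference stayed negative, from -1.42 to -0.523 points over the libraries left out. The 121 genes high in muscle became 185 at 1 CPM and 58 at 50 CPM added to both levels, and 124 to 156 with 1 library left out, the 156 without TrafficJam-Upd replicate 2. Requiring at least 2 of the 4 markers removed no muscle cell, so it tested nothing and is left out of the tallies. Among named genes 208 values were unchanged in call and direction, 87 gained and 8 lost a call, and 8 turned, all on leaving out 1 library. Over those fits the log2 difference ran from -0.65 to 0.15 for Mlc2 and from -0.48 to 0.31 for up, which turned without the second Nanos-Upd library (0.04 and 0.16) or the first TrafficJam-Upd library. It ran from -0.36 to 0.64 for wupA, which turned without the first Nanos-Upd library (-0.30) or the second TrafficJam-Upd library, and from -0.014 to 0.59 for lncRNA:roX1 and -0.10 to 0.65 for lncRNA:roX2, which turned without the latter. With about 80 cells per library, 1 UMI is worth over 3 CPM, so genes near 10 CPM cannot be told from 0.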

Other observations

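Genes outside the muscle lists were also among the 121. l(2)efl, a small heat shock protein related to alpha B-crystallin, was at 579, 837, 476 and 194 CPM in muscle and at most 5.22 CPM in any other class. PGRP-LB, a secreted or cellular peptidoglycan amidase that dampens immune signalling, was at 340, 322, 331 and 294 CPM, close to level over the libraries. Tdc1, a tyrosine decarboxylase, was at 139, 84.7, 159 and 101 CPM and at most 1.38 CPM elsewhere.

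Glycolysis genes (0 of 15) and nuclear genes of oxidative phosphorylation (0 of 20) were not among the 121. Argk1 (arginine kinase) was at 473, 650, 487 and 373 CPM in muscle and reached 1102 CPM in another class. DNA replication genes summed to 363, 718, 231 and 976 CPM in muscle, higher in both second replicates, against 2127 to 2327 CPM in the GSC-like class.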
